A study of Mus musculus with 54 samples.

Results

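The data described here compared 3 arrays of Mageb16 knockdown (KD) embryoid bodies (EBs) with 3 arrays of scrambled-control (SCR) EBs, all taken on day 4 of differentiation. The members were chosen by the line, day and chip number in the array labels, which gave 6 of the 54 arrays of the series. KD EBs came from male CGR8 mouse embryonic stem cells (ESCs) of strain 129 that had been transfected with a plasmid expressing a short hairpin RNA against Mageb16 and kept under puromycin. SCR EBs came from the same ESCs transfected with the same kind of plasmid holding a non-targeting hairpin, and wild-type (WT) EBs, 3 arrays at day 4, came from ESCs without plasmid. The other arrays cover days 0, 2, 12, 15 and 22 of the KD, SCR and WT lines. All EBs were made in hanging drops, in which ESCs aggregate and start to form the germ layers.

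The KD line and the SCR line are each 1 population of puromycin-resistant cells, so a property of the population cannot be told apart from an effect of its hairpin. The labels number the replicates by chip and do not say whether they were separate cultures. The p-values below therefore measure the spread between replicate arrays, which may be technical. This spread was pooled per probe set over all 54 arrays of the series. Where the day 4 arrays of a gene spread more widely than those of other days, its p-value does not fully reflect this. EBs are mixtures, and in such bulk RNA fewer cells of a type and less RNA per cell cannot be told apart.

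Signals are log2 values normalised by the robust multi-array average (RMA), in which a difference of 1 is a 2-fold difference. Within each line and day, replicate arrays correlated between 0.986 and 0.997 across probe sets, and the median SD between replicates at day 4 was 0.116 in KD, 0.134 in SCR and 0.115 in WT EBs. The lower quartile of the day 4 arrays lay between 4.305 and 4.37. A gene whose mean in the lower group fell under that quartile is called "dim" in that group below, and the size of its difference is inexact. A gene or probe set was called changed when its limma adjusted p was under 0.05 and its difference at least 1.

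A property of the day 4 arrays bears on every result below. The SCR EBs stood apart from both of the other lines. Of 30939 probe sets, 3011 (9.73%) were called between KD and SCR, 75 (0.242%) between KD and WT, and 2798 (9.04%) between SCR and WT. In genes, each read from its brightest probe set, these counts were 1669 of 14104 (11.8%), 57 (0.404%) and 1510 (10.7%). In probe sets, the count between KD and WT was 45 without KD replicate 2 and 134 without WT replicate 2, against 75 in all arrays. These comparisons share arrays with each other, so WT values are given beside those of KD and SCR and are no separate support. For 1621 of the 1669 genes called between KD and SCR (97.1%), the WT mean lay nearer to the KD mean than to the SCR mean.

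Mageb16 belongs to the MAGE family, X-linked and autosomal genes of which many are active mainly in germ cells, and some of whose proteins bind E3 ubiquitin ligases. In an EB, ESCs first leave the naive state for a primed, epiblast-like state. A streak-like wave under Wnt, Nodal and BMP signals follows, in which cells lose epithelial contacts and become mesoderm and definitive endoderm. The pluripotency factors fall as the regulators of these tissues come up, and germ-line genes are silenced in most somatic cells by DNA methylation.

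The targeted gene was measured first. Mageb16 read 4.05, 3.49 and 3.75 on the KD arrays, against 9.75, 9.30 and 9.48 on the SCR arrays. The KD arrays were all below the SCR arrays, with a difference of -5.75 (SE 0.168, adjusted p = 7.95e-28 in limma), 53.7-fold, and the gene was dim in KD. WT EBs read 7.16, 6.98 and 6.98, which lies between KD and SCR, and KD was also lower than WT (-3.28). The difference between KD and SCR was -3.01 at day 0, -4.62 at day 2 and -4.71 at day 12.

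Of 20 genes listed for the MAGE family, 10 were measured, 3 were called higher and 2 lower in KD, with a median difference of 0.43. Over all 14104 genes, 801 (5.68%) were called higher and 868 (6.15%) lower in KD, and the median difference was -0.0033. Ndn, which encodes the growth-restraining MAGE protein necdin, read 10.68, 10.78 and 10.78 in KD, against 9.07, 9.23 and 9.28 in SCR (1.55). Maged1, an adaptor in cell-death and transcription pathways, was higher by 1.38 and Magee1 by 1.36. Magel2, which directs protein sorting at endosomes, fell to 5.69, 5.43 and 5.41 in KD, against 6.72, 7.23 and 7.10 in SCR (-1.51). Nsmce3 (0.04) and Maged2 (0.82) were not called.

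**Figure D1:**
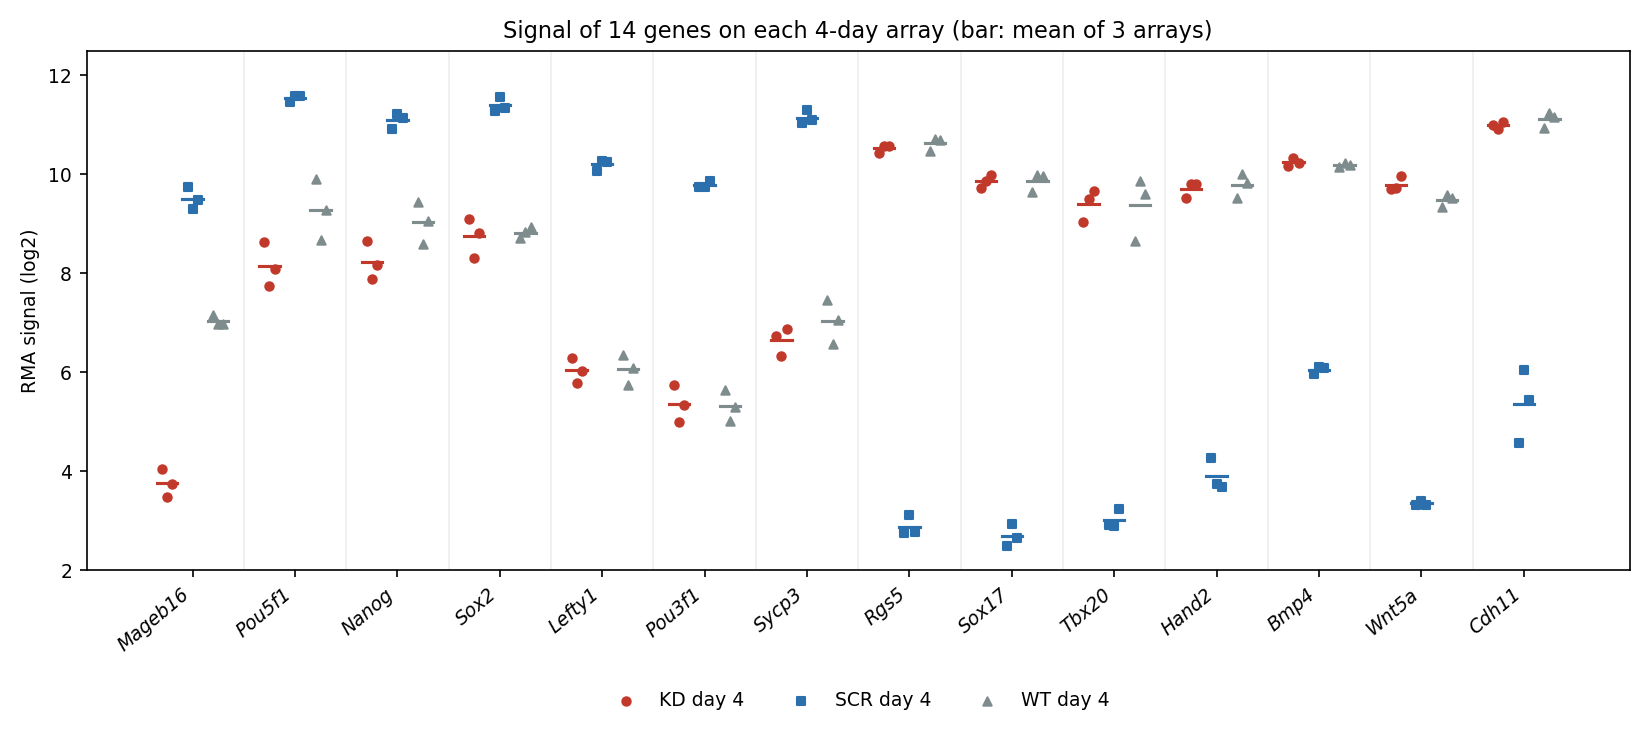
RMA log2 signal (y axis) of 14 genes in day 4 EBs, 1 column per gene. Circles are KD arrays, squares SCR arrays and triangles WT arrays, with a bar at each mean (n = 3 each). In Mageb16 the order is KD, WT, SCR from low to high, and in Rgs5, Sox17, Tbx20, Hand2, Bmp4, Wnt5a and Cdh11 the KD and WT points lie together far above the SCR points.

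Short stretches around the start sites of 6 genes are shown because the results turn on pluripotency factors and on Wnt targets. The windows are RefSeq promoters of build GRCm38.p6, 250 bases before and 50 after the annotated start, written along the gene. The first 4 hold the octamer core ATGCAAA, or TTTGCAT on the other strand, the element bound by POU factors such as Oct4, in capitals.
Mageb16 (chrX:79671386-79671685, minus strand): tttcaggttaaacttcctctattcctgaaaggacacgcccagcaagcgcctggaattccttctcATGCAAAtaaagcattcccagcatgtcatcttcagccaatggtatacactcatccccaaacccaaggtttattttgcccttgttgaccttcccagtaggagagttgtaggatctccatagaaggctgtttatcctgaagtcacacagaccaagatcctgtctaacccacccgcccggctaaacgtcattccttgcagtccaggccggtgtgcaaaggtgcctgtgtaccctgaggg
Nanog (chr6:122707239-122707538, plus strand): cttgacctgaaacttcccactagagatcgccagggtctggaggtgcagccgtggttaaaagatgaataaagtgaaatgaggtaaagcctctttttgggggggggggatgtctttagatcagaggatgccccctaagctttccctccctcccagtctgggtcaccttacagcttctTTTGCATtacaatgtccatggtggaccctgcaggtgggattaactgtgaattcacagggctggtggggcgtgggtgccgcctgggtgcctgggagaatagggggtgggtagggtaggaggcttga
Sox2 (chr3:34649745-34650044, plus strand): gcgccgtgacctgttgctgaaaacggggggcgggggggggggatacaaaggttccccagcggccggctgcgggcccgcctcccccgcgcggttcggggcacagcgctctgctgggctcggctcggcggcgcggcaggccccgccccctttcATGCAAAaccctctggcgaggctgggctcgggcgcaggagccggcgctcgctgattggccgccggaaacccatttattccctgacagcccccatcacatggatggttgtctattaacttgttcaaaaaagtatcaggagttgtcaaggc
Zfp42 (chr8:43306960-43307259, minus strand): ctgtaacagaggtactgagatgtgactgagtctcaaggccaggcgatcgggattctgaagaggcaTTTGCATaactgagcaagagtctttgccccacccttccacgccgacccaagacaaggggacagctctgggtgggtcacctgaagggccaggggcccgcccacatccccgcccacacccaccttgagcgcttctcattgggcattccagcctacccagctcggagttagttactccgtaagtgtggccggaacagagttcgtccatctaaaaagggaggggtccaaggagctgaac
The core begins 186 bases before the start of Mageb16, 75 before that of Nanog, 99 before that of Sox2 and 185 before that of Zfp42. Among 20 pluripotency genes with a window, 3 held the core (15.0%), and these are the ones printed. Of 12 streak genes, 2 held it (16.7%), against 5.24% of 27025 genes with a window. The core occurred in 2 of 13 of the largest falls (15.4%) and in 1 of 10 of the largest rises (10.0%). It was thus not particular to the pluripotency genes. Zfp42 was picked for printing after its values were seen. The other 2 windows hold the TCF/LEF core TCAAAG, or CTTTGA on the other strand, in capitals, the element through which Wnt signalling acts.
Mesp1 (chr7:79793541-79793840, minus strand): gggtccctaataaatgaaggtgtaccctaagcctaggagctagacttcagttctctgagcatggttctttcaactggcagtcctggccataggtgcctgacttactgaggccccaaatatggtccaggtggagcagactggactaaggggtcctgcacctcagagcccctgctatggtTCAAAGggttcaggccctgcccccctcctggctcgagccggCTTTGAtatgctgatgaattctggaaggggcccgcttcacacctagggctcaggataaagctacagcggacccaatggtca
Dkk1 (chr19:30549447-30549746, minus strand): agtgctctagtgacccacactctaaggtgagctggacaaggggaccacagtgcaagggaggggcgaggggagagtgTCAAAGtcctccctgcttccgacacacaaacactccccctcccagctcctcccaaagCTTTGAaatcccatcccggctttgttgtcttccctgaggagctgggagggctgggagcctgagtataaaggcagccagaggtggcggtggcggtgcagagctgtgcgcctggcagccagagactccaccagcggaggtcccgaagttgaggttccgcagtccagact
The cores begin 72 and 31 bases before the start of Mesp1 and 174 and 117 before that of Dkk1. Of 23 Wnt genes with a window, 7 held this core (30.4%), and of 12 streak genes 2 did (16.7%), against 18.2% of all genes. The core occurred in 5 of 13 of the largest falls (38.5%) and in 2 of 10 of the largest rises (20.0%). It was thus not tied to genes higher in KD. The letters of the octamer core and of the TCF/LEF core do not occur together in any window printed here. A match is a description of the letters and shows no binding in these cells.

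The called genes covered a wide range. Of the 801 genes higher in KD, 245 differed by at least 2 log2 units, 112 by at least 3, 60 by at least 4 and 26 by at least 5. The 868 lower genes held fewer large changes, with 241 at 2 or more, 58 at 3 or more, 13 at 4 or more and 1, Mageb16, at 5 or more. In 172 of the higher genes SCR was dim, and in 202 of the lower genes KD was dim. The largest rises were those of Rgs5, Nrp1, Sox17, Aplnr, Spink1, Wnt5a, Tbx20, Pdgfra, Hand2, Cxcr4, Plac1, Asb4, Cdh11, Bmper and Msx2. After Mageb16, the largest falls were those of Abcc4 and Patl2. Of 487 genes on the X chromosome, 58 were higher and 42 lower. Both are larger shares than over all genes (5.68% higher and 6.15% lower), and the reason was not tested.

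**Figure D2:**
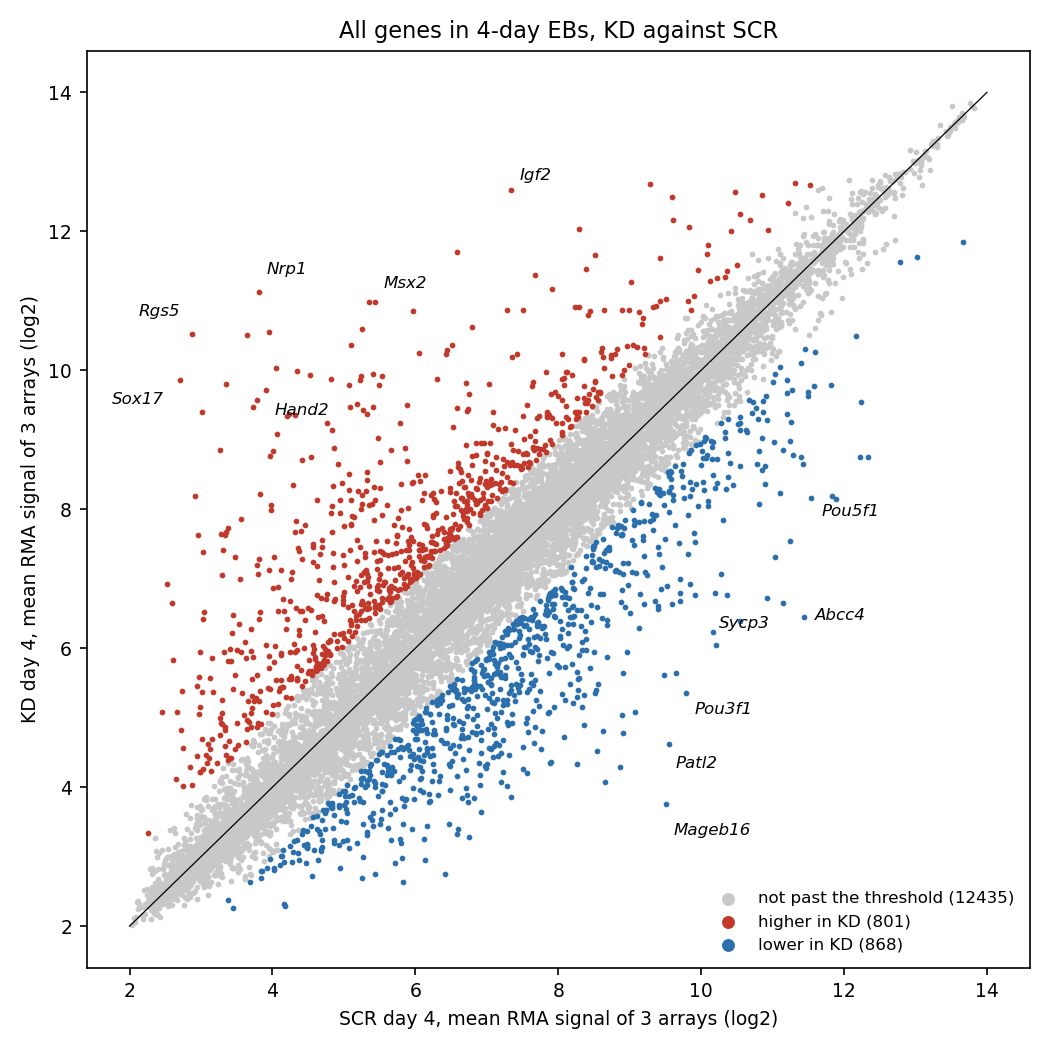
Mean RMA log2 signal of 3 KD arrays (y axis) against the mean of 3 SCR arrays (x axis) for 14104 genes in day 4 EBs. Red points are the 801 genes called higher in KD, blue points the 868 called lower and grey points the 12435 not called. In 172 of the red points the SCR mean lies under the lower quartile of the SCR arrays.

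The pluripotency genes were low in KD EBs. Of 30 measured, 23 fell and 2 rose, with a median difference of -2.55. Their median signal was 6.86 in KD, 8.93 in SCR and 7.35 in WT EBs. Pou5f1, which encodes Oct4, read 8.64, 7.74 and 8.09 in KD, against 11.47, 11.58 and 11.58 in SCR, with no overlap. The difference was -3.39 (SE 0.21, adjusted p = 3.06e-17), 10.5-fold, and WT EBs averaged 9.29 ± 0.61 (SD, n = 3). Nanog, a homeodomain factor of the naive state, read 8.66, 7.88 and 8.17 in KD and 10.91, 11.23 and 11.15 in SCR (-2.86, adjusted p = 6.41e-15). Sox2, the partner of Oct4 on DNA, read 9.11, 8.32 and 8.81 in KD and 11.29, 11.56 and 11.35 in SCR (-2.65, adjusted p = 4.45e-19). In Pou5f1, Nanog and Sox2, KD replicate 2 was the lowest array, and the highest KD array was still over 2 log2 units below the lowest SCR array.

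Other members of the naive network showed the same order of groups. Nr0b1 (Dax1), a nuclear receptor that restrains differentiation, fell to 5.25, 4.22 and 4.86 in KD, against 8.90, 8.82 and 8.98 in SCR (-4.12), with a WT mean of 6.14 ± 0.13. Esrrb, another orphan nuclear receptor of the network, read 4.82, 4.07 and 4.76 in KD and 7.60, 7.84 and 7.83 in SCR (-3.21), and all 3 of its probe sets were called lower. Zfp42 (Rex1), a marker of naive cells, read 8.56, 7.56 and 8.11 in KD, against 10.87, 10.72 and 10.83 in SCR (-2.73). These 3 genes lay below the WT mean in KD and above it in SCR. L1td1, an RNA-binding protein of ESCs, was lower by 3.74 log2 units, with arrays at 8.72, 7.64 and 8.10 in KD and 11.78, 11.91 and 11.98 in SCR. Dppa2, a chromatin factor of the early embryo, differed by -3.59. Fgf4, the growth factor that moves ESCs out of the naive state, differed by -3.47 on its brightest probe set, with 2 of its 4 probe sets called and the others at -0.82 and -0.81.

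The 2 pluripotency genes that rose also act outside the ESC network. Tbx3, a T-box repressor of naive ESCs that is used again in limb and heart mesoderm, read 9.75, 9.95 and 9.91 in KD, against 5.89, 6.50 and 6.51 in SCR (3.57, adjusted p = 1.67e-19), and 10.00 ± 0.08 in WT. At day 2 the same gene was lower in KD (-2.32). Klf4, a zinc-finger factor of ESCs and of epithelia, read 7.52, 7.42 and 7.54 in KD, against 5.39, 6.34 and 6.01 in SCR (1.58). Sall4 (0.08), Lin28a (-0.12) and Trim28 (-0.23), bright in KD and in SCR, were not called. At day 2, where 671 of all genes (4.76%) were called between KD and SCR, 2.35% higher and 2.40% lower, none of the pluripotency genes was called higher and 14 were called lower. At day 12, where 1996 of all genes (14.2%) were called, 8.67% higher and 5.48% lower, the counts were 0 higher and 24 lower.

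Genes of the primed epiblast were also low in KD, although at day 2 they had stood the other way. Of 14 measured, 10 were lower and 2 higher at day 4 (median -2.10), whereas at day 2, 6 were called higher and 1 lower. Pou3f1 (Oct6), a POU factor of the primed epiblast, read 5.74, 4.99 and 5.34 in KD, against 9.75, 9.75 and 9.87 in SCR (-4.43, SE 0.23, adjusted p = 1.1e-19). Its WT mean was 5.32 ± 0.32. Pim2, a survival kinase, read 7.04, 6.54 and 6.58 in KD and 10.80, 11.04 and 10.92 in SCR (-4.20), and Sox3, a SoxB1 factor of epiblast and neural plate, differed by -2.71. Dusp6, the feedback phosphatase of the ERK pathway, read 9.21, 8.52 and 8.82 in KD and 11.07, 11.21 and 11.16 in SCR (-2.30). For each of these genes the WT mean lay within 0.7 log2 units of the KD mean. Dnmt3b, the de novo methyltransferase of the epiblast, was bright in both lines and not called on its brightest probe set (-0.78), while its other probe set was called lower (-1.06). Cdh2, N-cadherin, was the leading gene that went up, with 10.80, 10.87 and 10.95 in KD and 6.75, 7.75 and 7.34 in SCR (3.59).

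**Figure D3:**
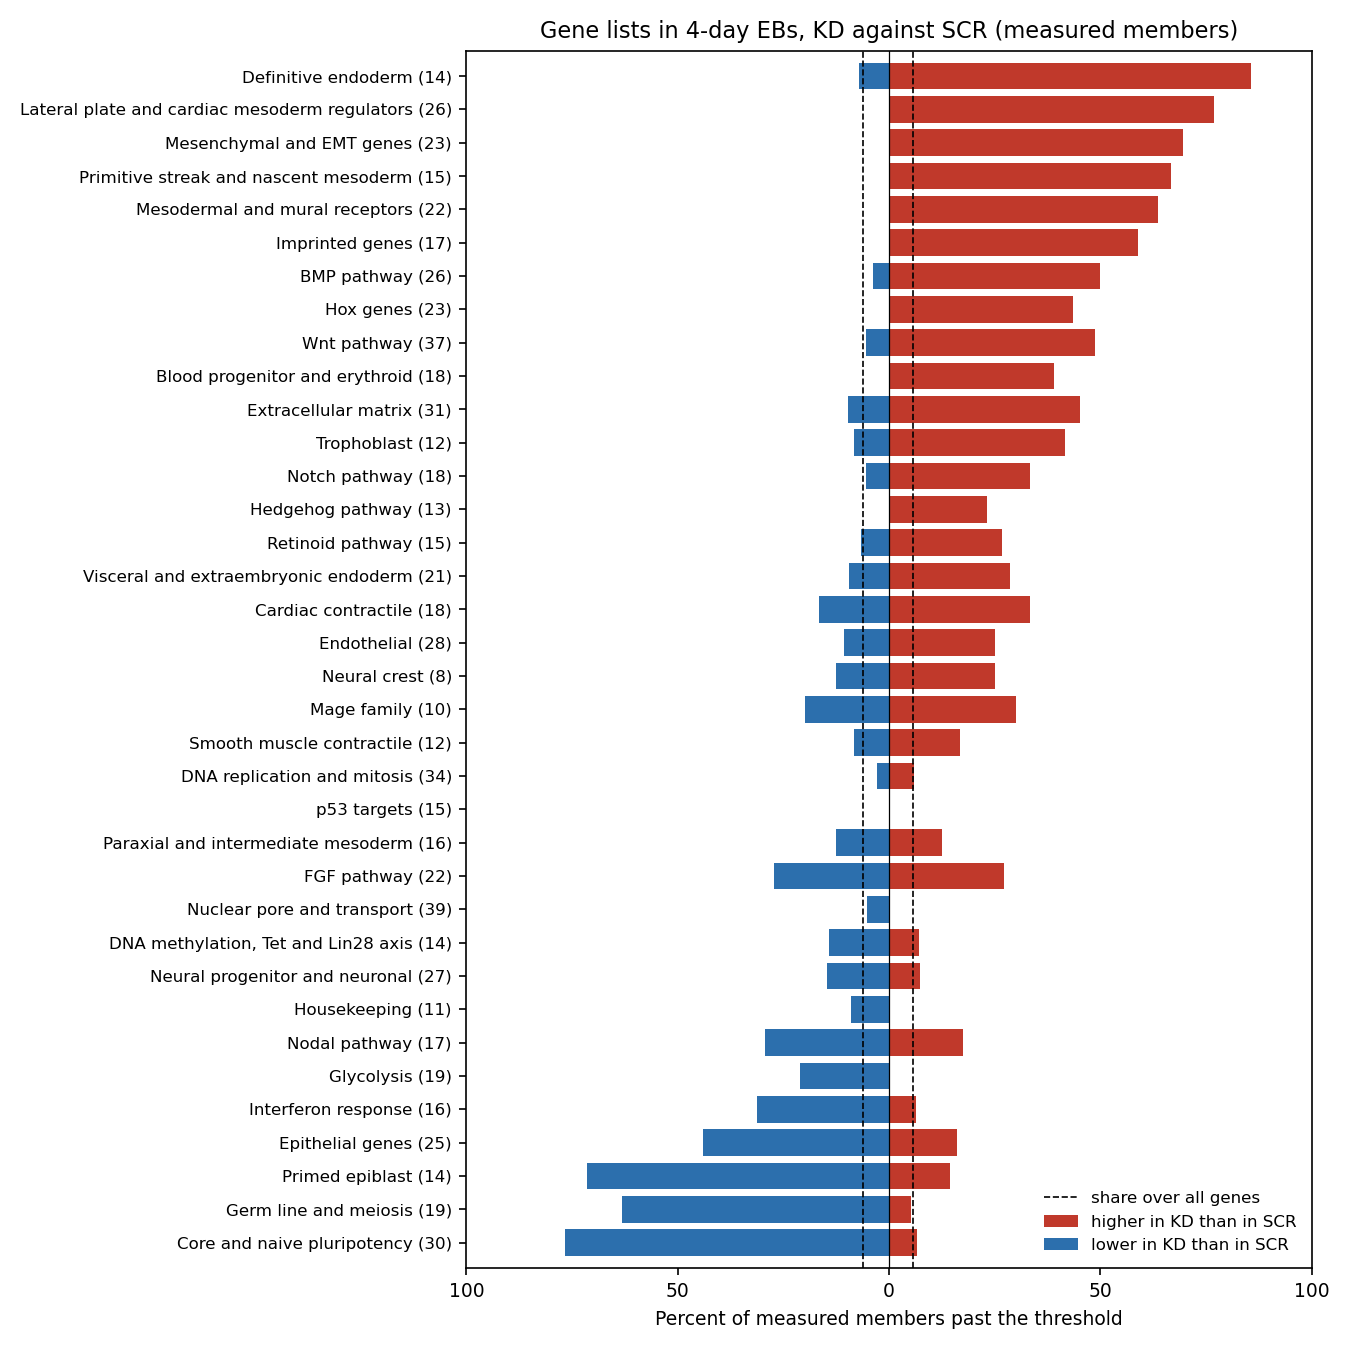
Percent of the measured genes of each list that were called higher in KD (bars to the right) or lower in KD (bars to the left) against SCR in day 4 EBs. Dashed lines mark the shares over all 14104 genes, 5.68% higher and 6.15% lower. Endoderm, lateral plate, mesenchymal and imprinted genes extend far to the right, and pluripotency, primed epiblast and germ-line genes far to the left.

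Within the Nodal pathway, genes moved in both directions. Of 17 measured, 3 were higher and 5 lower (median 0.06). Nodal, the TGF-beta ligand that maintains the epiblast and induces the streak, read 6.97, 6.41 and 6.66 in KD, against 9.57, 9.87 and 9.68 in SCR (-3.03, adjusted p = 4.99e-23). Its secreted inhibitor Lefty1 read 6.30, 5.79 and 6.03 in KD and 10.08, 10.28 and 10.26 in SCR (-4.17, SE 0.18), with WT at 6.06 ± 0.30. Lefty2, the paralog, read 5.54, 4.47 and 5.10 in KD and 8.71, 9.08 and 8.90 in SCR (-3.86). The ligand Gdf3 was lower by 2.98 log2 units and the co-receptor Tdgf1 (Cripto) by 1.81. All of these except Tdgf1 had KD arrays at least 2 log2 units below every SCR array. Cer1, an inhibitor made by endoderm, went the other way, with 7.43, 7.16 and 7.78 in KD and 4.64, 4.30 and 4.76 in SCR (2.89). The transducers Smad3 (1.49) and Foxh1 (1.19) were higher, and the receptors Acvr1b (0.60) and Acvr2b (0.41) were not called.

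The streak regulators were high in KD EBs. Of 15 measured, 10 rose and none fell (median 1.68). Mixl1, a homeobox gene of the streak that directs endoderm, read 9.19, 7.89 and 8.53 in KD, against 5.09, 5.39 and 5.48 in SCR (3.22, SE 0.241, adjusted p = 1.02e-14). WT EBs read 10.55, 9.04 and 9.78, and KD was below WT by 1.25 log2 units (adjusted p = 0.00147). Mesp1, the first marker of cardiovascular progenitors, read 7.69, 7.23 and 7.46 in KD and 4.74, 4.54 and 4.8 in SCR (2.77), and its WT mean was 8.59 ± 0.93, which also left KD below WT (-1.13, adjusted p = 0.0014). Mixl1 and Mesp1 were thus the 2 streak genes called between KD and WT, in the opposite direction to KD against SCR. The WT arrays of both spread widely, while these p-values use the spread pooled over all days and lines. For Mixl1, KD replicate 1 (9.19) lay above WT replicate 2 (9.04), but each KD array lay below the WT array of its own replicate number. Lhx1, a LIM homeobox gene of the anterior streak, read 9.12, 8.54 and 8.86 in KD and 3.63, 4.41 and 3.97 in SCR (4.84, dim in SCR). The posterior genes Cdx2 (4.02), Nkx1-2 (3.48, dim in SCR) and Evx1 (3.29) were all higher in KD. Cdx2 read 8.67, 9.15 and 8.83 in KD and 4.84, 5.03 and 4.72 in SCR. Sp5, a Wnt target (0.86), and Fgf8, a streak ligand (0.68), were not called. At day 12 no streak gene was called higher and 5 were called lower in KD.

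Regulators of the lateral plate and the heart were high in KD EBs. Of 26 measured, 20 were higher and none lower (median 2.15), against 3 higher at day 2 and 13 at day 12. Tbx20, needed for growth of the heart tube, read 9.04, 9.51 and 9.67 in KD, against 2.91, 2.90 and 3.24 in SCR (6.39, SE 0.229, adjusted p = 4.85e-25, dim in SCR). WT EBs averaged 9.37 ± 0.64. Hand2, a helix-loop-helix factor of heart and limb, read 9.52, 9.81 and 9.80 in KD and 4.28, 3.75 and 3.69 in SCR (5.80, dim in SCR), while a second probe set of this gene differed by 0.80 and was not called. Msx2, a homeobox target of BMP signals, read 11.04, 11.08 and 10.84 in KD and 5.52, 5.28 and 5.49 in SCR (5.56, SE 0.161), 47.1-fold, and its second probe set differed by 0.36. For Hand2 and Msx2 the direction therefore rests on the brighter probe set.

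Gata6, a zinc-finger factor of heart and endoderm, read 9.26, 9.44 and 9.39 in KD and 3.91, 4.64 and 4.38 in SCR (5.05, dim in SCR). Msx1, the paralog of Msx2, differed by 4.39, with 9.85, 10.00 and 9.92 in KD and 5.29, 5.72 and 5.60 in SCR. Tbx4, a hindlimb and allantois factor, was the member that also separated KD from WT. It read 5.90, 7.36 and 7.06 in KD, 4.52, 4.77 and 4.56 in SCR and 3.76, 5.52 and 4.92 in WT, with differences of 2.16 against SCR and 2.04 against WT, on 1 of its 2 probe sets. Nkx2-5 (0.02), the early cardiac homeobox gene, Mef2c (0.71) and Myocd (0.83), regulators of muscle genes, were not called on their brightest probe sets, while 1 of the 5 probe sets of Mef2c was called higher (1.05).

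Contractile genes of the heart were mixed at day 4. Of 18 measured, 6 were higher and 3 lower (median 0.25), and at day 12 the counts were 10 and 0. Tnnc1, slow and cardiac troponin C, read 9.03, 9.01 and 9.02 in KD, against 5.19, 5.28 and 5.96 in SCR (3.54, adjusted p = 2.55e-14). The atrial light chain Myl7 read 7.41, 6.96 and 7.34 in KD and 4.66, 4.37 and 4.66 in SCR (2.67), and Myl4, the embryonic atrial light chain, read 6.4, 6.10 and 6.15 in KD and 3.57, 3.39 and 3.35 in SCR (2.78, dim in SCR). In these 3 genes no KD array overlapped an SCR array. Myh6, the alpha myosin heavy chain of the adult mouse ventricle, was low on all 6 arrays, with 3.43, 3.16 and 3.54 in KD and 4.08, 4.69 and 4.51 in SCR (-1.05, dim in KD, 1 of 2 probe sets). Cardiac troponin T, Tnnt2, was at the bottom of the scale in KD and SCR, at 3.97, 3.84 and 3.68 in KD and 3.58, 3.15 and 2.38 in SCR (0.79), and was not called. Of the 3 lower contractile genes, 1 stayed called when the probe sets of a gene were averaged. Of 12 smooth muscle genes, 2 were higher and 1 lower, namely Tpm1 (1.71), Cald1 (1.01) and Tagln (-1.23).

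Endothelial genes moved in both directions. Of 28 endothelial genes, 7 were higher and 3 lower (median -0.01). Aplnr, the apelin receptor of gastrulating mesoderm, read 10.15, 10.72 and 10.67 in KD, against 2.67, 3.98 and 4.29 in SCR (6.87, SE 0.279, dim in SCR). Kdr, the VEGF receptor Flk1 that marks haemangioblasts, read 10.00, 9.91 and 9.95 in KD and 5.71, 5.33 and 5.20 in SCR (4.54, adjusted p = 1.9e-26). The WT means, 10.67 ± 0.07 for Aplnr and 10.07 for Kdr, lay close to the KD means. Flt1, the decoy VEGF receptor (1.98), and Sox7, an endothelial Sox factor (2.46, dim in SCR), were higher, and Plvap, a diaphragm protein of mature endothelium, was lower (-1.67). Of 18 blood genes, 7 were higher and none lower (median 0.46), and 4 were higher in treat against 2-fold. Tal1, the regulator that specifies blood, read 7.28, 7.68 and 7.35 in KD and 4.57, 4.42 and 4.07 in SCR (3.08), and it was also higher in KD than in WT (1.43). Runx1, needed for definitive blood stem cells, differed by 4.29 (dim in SCR), and Lmo2, a cofactor of Tal1, by 2.43. The erythropoietin receptor Epor (0.39) was not called. At day 12, 17 endothelial genes were higher and none was lower.

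Definitive endoderm had the highest share of rises among the tissue lists given here, with 12 of 14 measured genes higher and 1 lower (median 2.25). Sox17, the HMG-box factor that specifies endoderm, read 9.73, 9.87 and 9.98 in KD, against 2.5, 2.94 and 2.66 in SCR (7.16, SE 0.172, adjusted p = 2.25e-30, dim in SCR). Cxcr4, a chemokine receptor of migrating mesendoderm, read 9.53, 9.60 and 9.59 in KD and 3.87, 3.70 and 3.80 in SCR (5.78, dim in SCR). The pioneer factor Foxa2 read 8.36, 8.23 and 8.37 in KD and 4.78, 5.98 and 5.52 in SCR (2.89), and Foxa1 read 7.98, 8.27 and 8.17 in KD and 4.75, 5.03 and 5.05 in SCR (3.20). The WT means were 9.87 ± 0.19 for Sox17, 9.78 for Cxcr4, 8.08 for Foxa2 and 8.13 for Foxa1, all within 0.3 log2 units of KD. Epcam, an epithelial adhesion protein that ESCs also make, was the lower member (-1.29). Prdm1, a repressor of endoderm and germ cells, was not called (0.23). None of the 14 genes was called between KD and WT. Only 57 of 14104 genes (0.404%) were called there, a share at which most lists of this size would hold none.

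Genes of the visceral endoderm list were mixed, with 6 of 21 higher and 2 lower (median 0.42). Spink1, a secreted protease inhibitor of gut endoderm, read 10.63, 10.48 and 10.53 in KD, against 4.55, 3.76 and 3.54 in SCR (6.6, dim in SCR). Pdgfra, a receptor of primitive endoderm and of mesoderm, read 9.78, 10.25 and 10.07 in KD and 3.83, 4.01 and 4.32 in SCR (5.98, dim in SCR). The basement membrane collagen Col4a1 was higher by 3.12. Lrp2 (megalin), an endocytic receptor of absorptive epithelia, went down to 4.31, 4.49 and 4.21 in KD, against 8.16, 8.38 and 8.23 in SCR (-3.92, 2 of 3 probe sets). Trophoblast genes had 5 of 12 higher and 1 lower (median 0.48), among them Plac1, a placental gene, at 9.20, 9.71 and 9.49 in KD and 3.97, 3.63 and 3.57 in SCR (5.74, dim in SCR), and Gata3 (3.84, dim in SCR), while Tfap2c was lower (-1.32). The other higher members, Cdx2 (4.02), Eomes (1.32) and Hand1 (1.18), are also counted in the streak, endoderm or lateral plate lists.

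Mesenchymal genes and their regulators rose as a group. Of 23 genes listed for epithelial-mesenchymal transition, 16 were higher and none lower (median 1.64). Snai2 (Slug), a repressor of E-cadherin, read 9.32, 10.39 and 10.06 in KD, against 4.72, 5.60 and 5.41 in SCR (4.68, adjusted p = 7.72e-14), with WT at 7.21, 10.48 and 9.78, an SD of 1.72. Cdh11, a mesenchymal cadherin, read 10.99, 10.92 and 11.07 in KD and 4.58, 6.04 and 5.44 in SCR (5.64, SE 0.228), and 11.12 ± 0.16 in WT. Tgfb2, a TGF-beta ligand of mesenchyme, differed by 5.14 (dim in SCR), Twist2 by 3.32 and Zeb1 by 2.36. Vim, the intermediate filament vimentin, read 11.44, 11.58 and 11.80 in KD and 9.46, 9.54 and 9.27 in SCR (2.18). Itgav, an integrin chain (-0.04), and Sparc, a matrix protein (0.80), were not called. Zeb2 lay near the threshold (1.11, 2 of 5 probe sets) and was not called without KD replicate 2.

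Of 25 epithelial genes, 11 were called lower, 4 higher and 10 not called (median -0.87). In limma's treat, a test against a 2-fold difference that called 419 of all genes higher (2.97%) and 471 lower (3.34%), 4 epithelial genes were lower and 2 higher. Cdh1, E-cadherin, read 10.47, 10.56 and 10.51 in KD, against 11.35, 11.66 and 11.52 in SCR, and 10.47 in WT on average. Its difference of -1.0 lay just short of the 2-fold threshold (adjusted p = 4.16e-12) and passed it in 4 of the alternative settings. The transcription factor Grhl2, which keeps epithelia together, was lower by 2.28 on 1 of 3 probe sets, and the tight-junction claudin Cldn3 read 5.38, 5.07 and 5.47 in KD and 6.94, 6.76 and 6.88 in SCR (-1.55). Simple-epithelium keratins went the other way. Krt8 read 12.48, 12.62 and 12.60 in KD and 10.52, 10.37 and 10.56 in SCR (2.08, 4.24-fold), and its partner Krt18 read 12.13, 12.22 and 12.15 in KD and 10.70, 10.64 and 10.69 in SCR (1.49). At day 0, where 171 of all genes (1.21%) were called, 0.709% higher and 0.503% lower, 10 epithelial genes were higher in KD and none was lower, at day 2 the counts were 7 and 2, and at day 12 they were 12 and 1.

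Receptors of mesodermal and mural cells were called higher for 14 of 22 genes and lower for none (median 1.40). Rgs5, a G-protein regulator of pericytes, read 10.43, 10.57 and 10.58 in KD, against 2.75, 3.11 and 2.77 in SCR (7.65, SE 0.222, dim in SCR), 201-fold, the largest rise of all genes. Nrp1, a receptor of semaphorins and VEGF, read 10.81, 11.24 and 11.34 in KD and 4.02, 3.74 and 3.68 in SCR (7.32, dim in SCR). The WT means, 10.63 ± 0.13 for Rgs5 and 11.16 for Nrp1, lay beside those of KD. Pdgfrb, the mural PDGF receptor, differed by 5.14 (dim in SCR), and Unc5c, a netrin receptor, by 4.40. Itga4, an integrin chain of migrating mesoderm, read 7.54, 8.41 and 8.18 in KD, 4.93, 4.55 and 5.01 in SCR and 5.37, 8.34 and 6.92 in WT, and it was called in KD against SCR (3.21) and in KD against WT (1.17). The KD and WT arrays of this gene overlapped, WT replicate 2 lying within the KD range. Each KD array lay above the WT array of its own replicate number.

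Matrix genes had 14 of 31 higher and 3 lower (median 0.92). Fbn2, a fibrillin of embryonic microfibrils, read 8.83, 9.19 and 9.39 in KD, against 4.33, 5.34 and 4.83 in SCR (4.30). Col4a2, the partner of Col4a1, read 7.82, 8.10 and 7.91 in KD and 4.77, 4.89 and 5.19 in SCR (2.99), and the fibrillar collagen Col5a1 read 8.0, 8.39 and 8.23 in KD and 4.96, 5.42 and 5.4 in SCR (2.95). The lower members were the proteoglycan Dcn (-2.14, dim in KD), the collagen chain Col1a2 (-1.64) and thrombospondin Thbs1 (-1.30). Lamb1 (0.33) and Nid2 (-0.62), parts of basement membranes, were not called.

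Among BMP ligands and targets, 13 of 26 genes were higher and 1 lower (median 1.18). Bmp4, the ligand that patterns the posterior streak, read 10.18, 10.34 and 10.23 in KD, against 5.97, 6.11 and 6.09 in SCR (4.19, SE 0.116, adjusted p = 2.26e-28), 18.3-fold, with WT at 10.20 ± 0.04. Bmp2, a related ligand, read 9.81, 9.95 and 10.05 in KD and 4.51, 4.47 and 4.58 in SCR (5.42), and Bmp5 read 8.83, 9.31 and 9.13 in KD and 3.98, 4.16 and 4.05 in SCR (5.03, dim in SCR). These 3 ligands differed between the lines by far more than the arrays of either line differed among themselves. The secreted modulator Bmper was higher by 5.59 (dim in SCR). The feedback inhibitor Smad6, a direct BMP target, read 9.65, 9.91 and 9.82 in KD and 5.42, 5.53 and 5.54 in SCR (4.30), while Id4, another target family member, was lower (-1.11). The receptors Bmpr1a (0.66) and Bmpr2 (0.81) were not called, although the dimmer of the 2 probe sets of Bmpr2 was called higher (1.16).

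Wnt pathway genes had 18 of 37 higher and 2 lower (median 0.86). Of the ligands, Wnt5a, which acts largely outside beta-catenin, read 9.71, 9.72 and 9.96 in KD, against 3.33, 3.41 and 3.33 in SCR (6.44, adjusted p = 4.38e-27, dim in SCR), and Wnt2 read 6.85, 7.09 and 7.04 in KD and 3.65, 3.41 and 3.56 in SCR (3.45, dim in SCR). Wnt8a, an early posterior ligand, was lower (-1.14, dim in KD). The R-spondin Rspo3, which strengthens Wnt signals, read 8.61, 8.66 and 8.68 in KD and 4.38, 5.33 and 5.03 in SCR (3.74), and its receptor Lgr5 read 8.03, 8.0 and 8.14 in KD and 3.81, 4.31 and 3.82 in SCR (4.08, dim in SCR). Ligand, agonist and receptor were thus high together in KD, while the Frizzled receptors Fzd7 (-0.09) and Fzd2 (0.33) were not called. Dkk1, the secreted inhibitor whose window is printed above, read 8.61, 8.79 and 8.71 in KD and 4.09, 4.75 and 4.39 in SCR (4.29), and the inhibitor Nkd1 differed by 2.93. The secreted Sfrp2 was lower by 2.12 log2 units.

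Other signalling families gave mixed counts. Of 22 FGF genes, 6 were higher and 6 lower (median 0.03), with Fgf3 (4.06, dim in SCR), Fgf10 (3.41) and Fgf15 (2.34) higher and Fgf4 and Dusp6 lower. Fgf10, a ligand of the heart field and limb, read 8.76, 8.36 and 8.01 in KD, against 5.02, 5.01 and 4.88 in SCR. Notch genes had 6 of 18 higher and 1 lower (median 0.36), the target Hes1 differing by 1.30 and the DNA-binding partner Rbpj by -1.24. Of 13 Hedgehog genes, 3 were higher and none lower (median 0.58). The ligand Shh read 6.20, 6.52 and 6.34 in KD, 3.38, 3.60 and 3.61 in SCR and 5.0, 4.6 and 4.62 in WT, so that KD was above both other lines (2.82 against SCR, dim there, and 1.61 against WT). Its receptor and target Ptch1 was not called (0.19). Of 15 retinoid genes, 4 were higher and 1 lower. Cyp26a1, the enzyme that breaks down retinoic acid in the streak, read 10.73, 10.09 and 10.29 in KD and 4.66, 5.34 and 5.30 in SCR (5.27), and Aldh1a2, which makes retinoic acid, differed by 2.09 (dim in SCR).

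Hox genes, which mark position along the body axis, were called higher for 10 of 23 measured and lower for none (median 0.57). The 3' genes Hoxd1 (5.28), Hoxb1 (4.30, dim in SCR) and Hoxb2 (4.48) led. Hoxb2 read 9.01, 9.53 and 9.20 in KD, against 4.77, 4.70 and 4.84 in SCR, and Hoxd1 read 7.77, 8.51 and 8.28 in KD and 2.71, 3.20 and 2.82 in SCR, where it was dim. Hoxd9, a more posterior gene, read 7.28, 8.04 and 7.70 in KD, 5.04, 4.67 and 4.8 in SCR and 5.87, 7.19 and 6.69 in WT. It was above SCR by 2.84 and above WT by 1.09. Together with Hoxd9, Hoxa9 (1.24) and Hoxc8 (1.21) were the Hox genes called higher in KD than in WT. Hoxa5 (0.04) and Hoxb4 (0.97) were not called between KD and SCR. Paraxial mesoderm genes had 2 of 16 higher and 2 lower (median 0.16), with Tcf15 lower (-2.36) and Foxc1 (1.77) and Foxc2 (2.23) higher, both dim in SCR.

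Neural genes did not move as a group. Of 27 measured, 2 were higher and 4 lower (median -0.08). Neurod1, a helix-loop-helix factor of neurons, read 3.90, 2.97 and 3.34 in KD, against 6.52, 6.67 and 6.59 in SCR (-3.19, dim in KD). Pax6, a regulator of eye and forebrain, differed by -2.87 on its brightest probe set (dim in KD), while its other probe sets differed by 0.05 and -0.71. The adhesion protein Ncam1, also made by mesoderm, was higher, with 7.05, 7.36 and 7.17 in KD and 5.02, 5.06 and 4.94 in SCR (2.19). Zic1 was higher by 1.11 and was not called without SCR replicate 1. Nes, a filament of neural progenitors (-0.38), and Sox21 (0.20) were not called. Of 8 neural crest genes, Sox9 (1.40) and Ets1 (1.22) were higher and Erbb3 (-1.50) was lower.

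Germ-line genes were low in KD. Of 19 measured, 12 fell and 1 rose (median -1.09), and in treat 5 were lower and none was higher. Sycp3, a part of the meiotic synaptonemal complex, read 6.73, 6.34 and 6.87 in KD, against 11.04, 11.30 and 11.11 in SCR (-4.50, SE 0.245, adjusted p = 4.67e-19), 22.7-fold, and 7.04 ± 0.45 in WT. Ddx4 (Vasa), a germ-cell RNA helicase, read 4.20, 4.11 and 4.29 in KD and 7.41, 7.67 and 7.61 in SCR (-3.36, dim in KD), and Mael, which acts with it against transposons, read 3.82, 2.92 and 3.12 in KD and 6.63, 6.90 and 6.73 in SCR (-3.47, dim in KD). In Sycp3, Ddx4 and Mael no KD array came within 2 log2 units of an SCR array. Prdm14 (-2.18) and Dazl (-2.11), both dim in KD, were also lower. The meiotic cohesin gene Rec8 (-1.23, dim in KD), Nlrp14 (-1.14, dim in KD), Hsf2 (-1.13), Tcfl5 (-1.09) and Nr6a1 (-1.04) were lower by little more than the threshold. Kit, a receptor that germ cells share with blood progenitors, was the higher member (1.39). Brca1 (0.20), Rad18 (-0.13) and Tex15 (-0.42), which act in DNA repair, were not called. The study picked several of these germ-line and nuclear pore genes from the same samples, so their counts are not independent of that choice.

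Of 14 genes of DNA methylation, Tet enzymes and the Lin28 pathway, 1 was higher and 2 lower (median -0.50). Tet1, which oxidises methylcytosine, read 7.94, 7.79 and 7.80 in KD, against 10.13, 10.48 and 10.30 in SCR (-2.46). Dnmt3l, the cofactor of de novo methylation, read 6.10, 5.22 and 5.84 in KD and 8.61, 8.29 and 8.45 in SCR (-2.73), and was also below WT (-1.41). Hmga2, a chromatin protein of growing mesenchyme and a target of let-7 microRNAs, read 11.96, 12.09 and 12.08 in KD and 8.22, 8.35 and 8.32 in SCR (3.75). Imprinted genes, of which the cell uses the copy of 1 parent, had 10 of 17 higher and none lower (median 2.26). Igf2, a fetal growth factor, read 12.30, 12.87 and 12.61 in KD and 7.31, 7.37 and 7.33 in SCR (5.26), 38.2-fold. The paternally expressed zinc-finger gene Peg3 read 12.58, 12.76 and 12.69 in KD and 9.08, 9.42 and 9.34 in SCR (3.40). Cdkn1c, a cell-cycle inhibitor used from the maternal copy, read 10.19, 10.38 and 10.01 in KD and 7.43, 7.30 and 7.35 in SCR (2.83), and the maternally expressed Phlda2 differed by 3.14. Genes used from the paternal copy and from the maternal copy were thus both among those that rose. Impact (-0.55) was not called.

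Replication and mitosis genes, nuclear transport genes, p53 targets and housekeeping genes had few calls. Glycolysis genes (21.1%) and interferon genes (31.2%) were called lower more often than all genes (6.15%). Of 34 replication and mitosis genes, 2 were higher and 1 lower (median -0.0017), the rises being those of Ccnd2 and Ccnd1, the D cyclins that carry mitogen signals into the cell cycle. Ccnd2 read 9.26, 9.15 and 9.30 in KD, against 5.32, 6.08 and 5.97 in SCR (3.45), and all 7 of its probe sets were called higher, as were all 3 of Ccnd1 (1.8 on the brightest). Ccne1, cyclin E1, was lower (-1.16), and Pcna (-0.03) and Mcm7 (-0.15) were not called. Of 39 nuclear pore and transport genes, none was higher and 2 were lower, Ranbp17 (-1.54) and Nup210 (-1.07). Of 5 genes listed for the Y chromosome and Xist, Uba1y was lower (-2.35, dim in KD) and none was higher. Glycolysis genes had none of 19 higher and 4 lower (median -0.49), led by Pdk1, the kinase that closes pyruvate dehydrogenase, at 8.99, 8.20 and 8.76 in KD and 11.37, 11.51 and 11.42 in SCR (-2.78). No p53 target among 15 was called (median -0.14). Interferon genes had 1 of 16 higher and 5 lower (median -0.35), with Bst2 (tetherin) at 6.84, 7.04 and 6.90 in KD and 9.65, 10.00 and 9.90 in SCR (-2.92) and Irf1 lower by 1.65 log2 units. Of 11 housekeeping genes, Actb (0.18) and Rplp0 (0.04) were not called and B2m, the light chain of MHC class I, was the 1 called, lower at 9.69, 9.51 and 9.87 in KD and 11.35, 11.52 and 11.63 in SCR (-1.81).

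Among the largest falls were several genes outside these lists. Abcc4, a pump of organic anions and cyclic nucleotides, read 6.51, 6.38 and 6.46 in KD, against 11.17, 11.69 and 11.45 in SCR (-4.99, SE 0.16, adjusted p = 1.65e-26), 31.7-fold, with WT at 7.10 ± 0.29. Patl2, an RNA-binding repressor of oocytes, read 4.75, 4.8 and 4.33 in KD and 9.60, 9.50 and 9.54 in SCR (-4.92), and WT averaged 6.90 ± 0.07, below SCR and above KD (-2.27 for KD against WT). Rpl39l, a ribosomal protein paralog of testis and ESCs, showed the same order, with 4.63, 4.71 and 4.21 in KD, 8.87, 8.14 and 8.62 in SCR and 7.11 ± 0.06 in WT (-4.03 against SCR and -2.59 against WT). Mageb16, Patl2 and Rpl39l were thus intermediate in WT, and they were the 3 genes furthest below WT in KD. Myb, a proliferation factor of progenitors, read 5.0, 4.98 and 5.28 in KD and 8.92, 9.19 and 9.11 in SCR (-3.99). Asb4, a ubiquitin-ligase adaptor of the vascular lineage and placenta, was among the largest rises, at 10.06, 9.93 and 9.98 in KD and 4.32, 4.24 and 4.46 in SCR (5.65), 50.2-fold.

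Set against WT, the KD EBs differed in few genes. Of the 57 genes called, 14 were higher (0.0993%) and 43 lower (0.305% of all genes) in KD. The higher ones were led by Tbx4 (2.04), Crispld1 (1.70) and Shh (1.61). Crispld1, which encodes a secreted protein, read 7.47, 7.46 and 7.33 in KD, 6.03, 5.56 and 6.01 in SCR and 5.61, 5.81 and 5.75 in WT, so that the SCR and WT arrays overlapped and every KD array lay above them. Of the 30 pluripotency genes, 6 were lower in KD than in WT and none was higher, Pou5f1 (-1.13), Nr0b1 (-1.37) and Fgf4 (-1.11) among them. None of the primed epiblast or definitive endoderm genes was called between KD and WT. In SCR against WT, 767 genes (5.44%) were higher and 743 (5.27%) lower in SCR. There, 22 pluripotency genes were higher and 2 lower, 12 streak genes lower, 18 lateral plate genes lower, 12 endoderm genes lower and 1 higher, and 10 imprinted genes lower. These counts share the SCR arrays with the comparison of KD and SCR.

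The day 2 arrays place these levels in time. From day 2 to day 4, 1885 genes (13.4%) changed in KD, 667 (4.73%) in SCR and 1999 (14.2%) in WT. The rises made up 6.91% of all genes in KD, 3.06% in SCR and 6.84% in WT, and the falls 6.45% in KD, 1.67% in SCR and 7.33% in WT. The genes that rose in KD and in SCR had 195 in common, 20.0% of the 975 in KD and 45.1% of the 432 in SCR. Those that rose in KD and in WT had 786 in common, 80.6% of the 975 in KD and 81.5% of the 965 in WT. For falls, KD and SCR had 111 in common, 12.2% of 910 and 47.2% of 235, and KD and WT 752, 82.6% of 910 and 72.7% of 1034. SCR and WT had 214 rises in common, 49.5% of 432 and 22.2% of 965, and 154 falls, 65.5% of 235 and 14.9% of 1034. KD and WT therefore had more of their changes in common with each other than either had with SCR, by these counts and with no test. All changes in SCR, 432 rises and 235 falls, were fewer than those KD and WT had in common. The order of the counts was thus fixed by the number of changes in SCR.

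The lists gave the same picture. Pluripotency genes moved by a median of -1.46 from day 2 to day 4 in KD, -0.41 in SCR and -1.39 in WT, with 17, 5 and 21 genes falling in KD, SCR and WT. Primed epiblast genes moved by -2.10 in KD, 0.28 in SCR and -1.96 in WT. For streak genes the medians were 1.92 in KD, 0.26 in SCR and 2.46 in WT, and 11, 2 and 11 genes rose. Lateral plate genes had 20 rises in KD, 2 in SCR and 18 in WT, with medians of 1.94, 0.05 and 2.20. Endoderm genes had medians of 2.60 in KD, 0.13 in SCR and 2.74 in WT, and mesenchymal genes 1.75, 0.16 and 1.92. Over all genes the medians were -0.057, -0.053 and -0.053. In each of these lists the SCR median was the one nearest to 0.

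**Figure D4:**
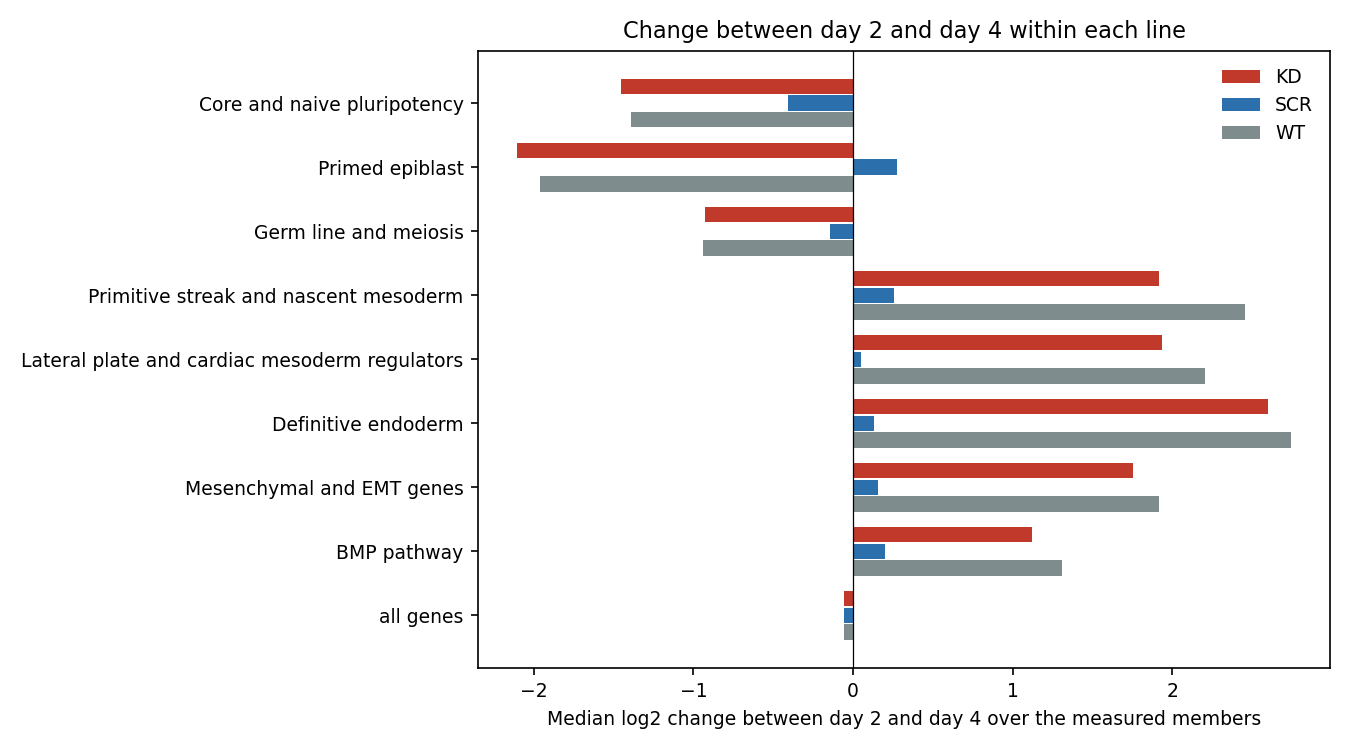
Median log2 change from day 2 to day 4 (x axis) of the measured genes of 8 lists and of all genes, for KD, SCR and WT. Positive values are higher at day 4. In the streak, lateral plate, endoderm, mesenchymal and BMP lists the KD and WT medians lie above 1 and the SCR medians below 0.3, and over all genes the 3 lines lie near 0.

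Whether KD and SCR differed otherwise at day 4 than at day 2 or day 12 was tested with an interaction term. Against day 2, 2900 probe sets (9.37%) were called, 1591 genes (11.3%). Against day 12, 3509 probe sets (11.3%) were called, 1983 genes (14.1%). Single genes showed different courses. Msx2 differed by 0.20 at day 2, 5.56 at day 4 and -0.65 at day 12, and Pou3f1 by 0.57, -4.43 and -2.52. The liver gene Alb was not called at day 4 (0.14) and higher in KD at day 12 (8.67).

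**Figure D5:**
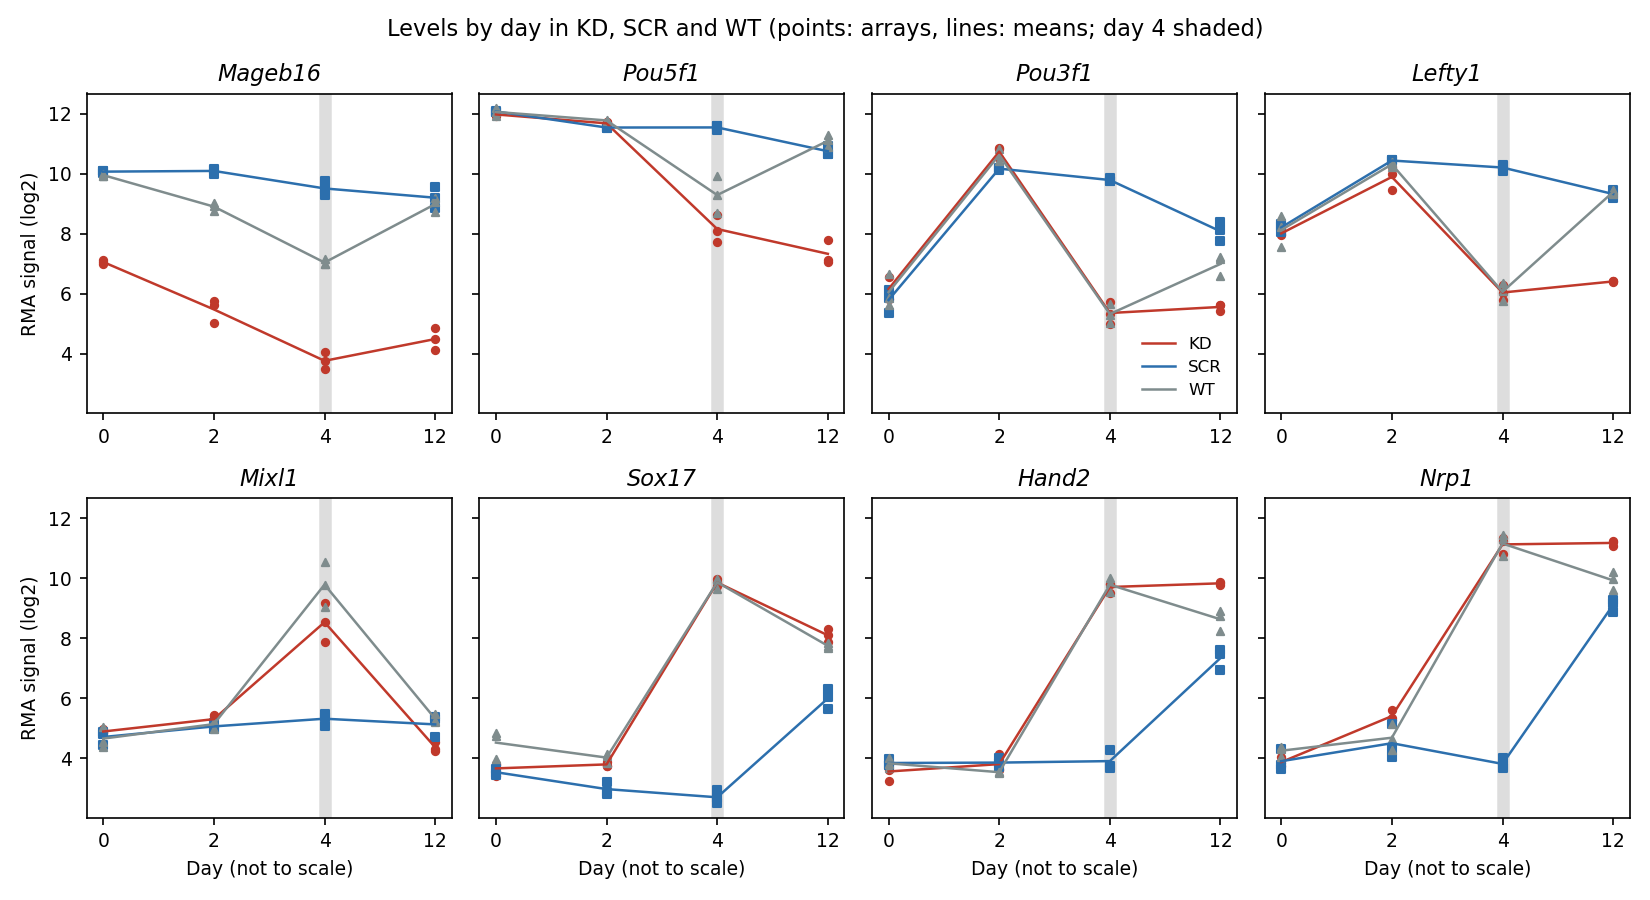
Mean RMA log2 signal (y axis) of Mageb16, Pou5f1, Pou3f1, Lefty1, Mixl1, Sox17, Hand2 and Nrp1 at days 0, 2, 4 and 12 (x axis, not to scale) in KD, SCR and WT, with points for arrays, lines through means and a grey band at day 4. Mageb16 is lowest in KD on each of these days, while for Pou3f1, Lefty1, Sox17, Hand2 and Nrp1 the KD and SCR lines are furthest apart at day 4.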

How the data were processed

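RNA of KD, SCR and WT cells was hybridised to Affymetrix Mouse Genome 430 2.0 arrays, 3 per line and day. The deposited log2 values had been made by the authors with RMA (background correction, quantile normalisation and summary per probe set), for which the processing notes name Affymetrix Expression Console and Partek 6.6 and the methods name R Bioconductor packages. The labels and the methods also name different RNA kits.

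Group means of all 54 arrays (18 groups) were fitted with limma 3.58.1 in R 4.3.3 (lmFit, contrasts, eBayes, with 36 residual and 3.974 prior degrees of freedom), with no filter. P-values were adjusted by Benjamini-Hochberg over 30939 probe sets, and a call required an adjusted p under 0.05 and a 2-fold difference. A gene was read from the probe set with 1 symbol and the highest mean over all arrays: 25596 probe sets had 1 symbol, 685 several and 4658 none, which gave 14104 genes. Symbols came from the platform annotation. Of 773 genes in 37 lists, 669 were measured, and the others were not analysed here. The lists held 841 entries, so some genes are counted in more than 1 list.

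The comparison and the lists were chosen with earlier results of these data known. Named were the 15 largest rises, the 15 largest falls other than Aass, Cbr3, Slc27a2 and Enpp3, and called members of each list. These list members came mostly from the 6 with the largest differences, and not all of those are named. Also named were bright members that were not called, and some genes picked after their values were seen, such as Crispld1, Zfp42 and Klf4. Promoter windows are RefSeq's. The number of arrays limits the precision. Deviations from the group means correlated by 0.430, 0.310 and 0.216 between KD and WT arrays of the same replicate number, so these numbers were taken to pair the KD and WT arrays. The main fit did not use this pairing, so all calls between KD and WT given above are unpaired. Only the alternative with a replicate block used it. No 2 arrays held identical values. On simulated data for KD against SCR, the fit called 50 of 50 probe sets changed by 1.5 log2 units, 1 of 50 changed by 0.7 and 0 of 30739 unchanged. The simulated noise was normal and independent between arrays, with the same SD in all groups for each probe set. It therefore cannot show how the fit handles technical replicates, correlated arrays or unequal spreads. Alternatives tried were quantile normalisation, centring on the median, the brightest 60% of probe sets, fits on the 6 compared or the 9 day 4 arrays, the replicate number as a block, trend and robust options, array weights, treat, the mean of a gene's probe sets and leaving out each array.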

Additional observations from a re-analysis of the deposited data

Results flagged for a closer look

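The difference between KD and SCR at day 4 was itself tested against those of day 2 and day 12, and what stood out here is that many probe sets differed. By limma's interaction term, 2900 probe sets had a day 4 difference unlike that of day 2, and 3509 had one unlike that of day 12. Positive values mean that KD relative to SCR was higher at day 4 than on the other day.

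Against day 2, the largest positive terms were those of Spink1 (7.73), Rgs5 (7.39), Aplnr (6.86), Nrp1 (6.41) and Tbx20 (6.39), genes of gut endoderm, pericytes, mesoderm and heart. The largest negative terms were those of Ugt8a (-5.69), a myelin lipid enzyme, the kinase gene Pim2 (-5.49), the activin inhibitor gene Fst (-5.43), the adhesion gene Nrcam (-5.32) and Pou3f1 (-5.0). Fst was higher in KD at day 2 (4.50) and not called at day 4 (-0.93), and Nrcam was higher at day 2 (3.18) and lower at day 4 (-2.14).

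Against day 12, the largest positive terms were those of Cyp26a1 (6.49), Lhx1 (6.25), Msx2 (6.20), Wnt5a (5.69) and the Wnt inhibitor gene Apcdd1 (5.50). The largest negative terms were those of genes of liver and yolk sac endoderm, albumin Alb (-8.53), Ugt2b34 (-7.18), the fibrinogen chain Fgg (-7.00), Serpina1b (-7.00) and Ambp (-6.92). Apcdd1 differed by 4.89 at day 4 and by -0.61 at day 12.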

How the results depend on the processing

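The alternatives were followed in 290 genes picked for naming, some of which the text leaves out. Of these, 243 kept their direction and their side of the threshold in every alternative that was run, and none reversed. Of the 197 called, 182 kept the call in every alternative other than treat, which tests against a 2-fold difference and took the call from 38. Treat called 1502 probe sets in KD against SCR, 6 in KD against WT, 1354 in SCR against WT, 1813, 370 and 1852 between day 2 and day 4 in KD, SCR and WT, 1115 for the day 4 difference against day 2 and 1398 against day 12. With the brightest 60% of probe sets, where fewer were tested, the counts were 1160 between day 2 and day 4 in SCR, 1931 against day 2 and 1985 against day 12. Leaving out each day 4 array in turn gave 2931 to 3160 probe sets in KD against SCR, 45 to 134 in KD against WT, 2728 to 2972 in SCR against WT, 3756 to 3980, 1615 to 2075 and 3826 to 4173 between day 2 and day 4 in KD, SCR and WT, 2831 to 3019 against day 2 and 3507 to 3555 against day 12, and 280 to 293 list genes, against 288 in all arrays. Without all replicate 3 arrays, a choice made after seeing the data, 37 probe sets were called in KD against WT.

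With each array centred on its median, 48.5% of the calls between day 2 and day 4 in KD were higher, against 59.9% as deposited, and 63.6% in SCR, against 77.0%. Among the brightest probe sets, 15.4% of the calls in KD against WT were higher, against 28.0%. For Boc, Cald1, Ets1, Hk1, Hsf2, Map2, Myh6, Nr6a1, Ttn and Zeb2 the call was lost with the mean of a gene's probe sets, and the cause was not tested. With the replicate number as a block, 3011 probe sets were called in KD against SCR. KD and SCR arrays of the same number correlated by 0.205, 0.0883 and 0.130, and 3 of 3 KD arrays were most like the SCR array of their own number. The numbers were not taken as pairs there. The largest of these values lies close to the smallest between KD and WT (0.216), so no clear line separates these comparisons. All calls between KD and SCR are thus unpaired too. For KD against WT, the block also left the count at 75. The block was shared by all lines and days, so this is no paired result. The block moved no other count by over 1.5 times. All 3011 probe sets with a 2-fold difference between KD and SCR had an adjusted p under 0.05. The block, the trend and robust options and the fits on fewer arrays leave these differences as they are. They could therefore change a call only through its p-value, so equal counts there are no separate support. Across all 54 arrays, replicate 3 lay between the other 2 more often than either of them in 17 of 18 groups. Dim genes have inexact fold sizes.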
